A study of Mus musculus with 16 samples.

Results

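Hepatic stellate cells (HSCs) are described here by the genes that set their 4 RNA sequencing libraries apart from the 12 libraries of other sorted liver cells, of 16 libraries in all. The other cells were endothelial cells (ECs), Kupffer cells (KCs, the resident macrophages of the liver) and hepatocytes (HEPs), with 4 libraries each. A gene was taken as specific to HSCs where its mean level in CPM (counts scaled to the reads on genes of each library) in HSCs was at least 4 times the highest of the 3 other cell type means, and 3524 of 47729 counted genes met that rule. Of these, 2077 had an HSC mean below 0.233 CPM, the value of 3 counts in the smallest library, and most of the description therefore rests on the 560 specific genes with an HSC mean of at least 10 CPM. For each cell type there were 2 libraries of WT mice and 2 libraries labelled KO. KO mice carried a tamoxifen-inducible, Cdh5-Cre ERT2-driven deletion of the loxP-flanked exon 7 of Zeb2 in ECs and an R26R CAG eGFP reporter, and WT mice were littermates without Cre. All mice received tamoxifen (2 mg per day for 5 days) and are given as adult, and by the general statement of the study mice were 8-week-old males and mRNA was analysed 2 weeks after tamoxifen. As the Cre driver acts in ECs, HSCs of KO mice were neighbours of the targeted cells and not themselves targeted. HSCs were sorted by ultraviolet autofluorescence, KCs as F4/80+ and ECs as Pan-endo+ cells without that autofluorescence, and HEPs were obtained by centrifugation. By the study's methods the cell types were isolated together from each suspension, but the labels do not give which libraries share a liver, and p-values measure only the spread between these libraries.

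HSCs are the pericytes of the liver sinusoid. They lie in the space of Disse between hepatocytes and endothelium, store vitamin A as retinyl esters in lipid droplets whose autofluorescence permits their sorting, and produce much of the matrix around the sinusoid. Upon injury they lose their droplets, become contractile myofibroblast-like cells and deposit fibrillar collagen. In the unchallenged liver they secrete growth factors and cytokines that act on hepatocytes, ECs and KCs.

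Depth was similar among libraries, with 12872706 to 15690506 reads assigned to genes (14460127 to 15629598 in HSCs), so that 3 counts correspond to 0.191 to 0.233 CPM. Zeb2 was counted over the whole gene, which does not separate exon 7. Its level in ECs was 106 CPM in both WT libraries and 199 and 130 CPM in those labelled KO, so that the deletion is not visible in these counts and groups are called by their labels. In HSCs Zeb2 was at 414 and 410 CPM in WT and 538 and 413 CPM in KO-labelled libraries. RNA of other cells was present in HSC libraries at low levels. The summed level of 12 endothelial markers was 351 to 801 CPM in HSCs and 18383 to 24372 CPM in ECs. That of 12 Kupffer cell markers was 579 to 2912 CPM in HSCs and 51477 to 66889 CPM in KCs, and that of 12 hepatocyte markers 659 to 8271 CPM in HSCs and 102641 to 118568 CPM in HEPs. None of these markers was at 0 in all HSC libraries. Hepatocyte marker RNA was lower in the KO-labelled HSC libraries (659 and 1636 CPM) than in those of WT mice (3424 and 8271 CPM), as it was in ECs (2958 and 2076 against 12649 and 25773 CPM). In KCs the order was the reverse, with 10336 and 12150 CPM in KO-labelled and 6129 and 9115 CPM in WT libraries. The part of hepatocyte RNA in the results below was not tested.

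All 4 markers that name the cells (Lrat, Reln, Des and Rgs5) were far higher in HSC libraries. Lrat, the enzyme that esterifies retinol for storage, was at 896 and 2229 CPM in WT and 1683 and 1696 CPM in KO-labelled libraries, and at 10.6 to 47.7 CPM in ECs, 4.18 to 14.4 CPM in KCs and 1.02 to 4.85 CPM in HEPs. Its lowest HSC library thus lay far above the highest library of any other cell. Against ECs, the next highest cell type, the difference in Lrat was large (log2 difference 6.49 ± 0.68 SE, edgeR adjusted p = 8.05e-06). Reln, encoding the secreted glycoprotein reelin, was at 1638 and 1756 CPM in WT and 1912 and 1261 CPM in KO-labelled libraries and did not exceed 28.2 CPM elsewhere. Des, encoding the intermediate filament desmin, was at 513 and 490.2 CPM in WT and 648 and 669 CPM in KO-labelled libraries and did not exceed 24.6 CPM elsewhere. Rgs5, a regulator of G protein signalling typical of pericytes, was at 6257 and 4938 CPM in WT and 3565 and 2689.7 CPM in KO-labelled libraries and at most at 83.5 CPM elsewhere, with the WT libraries the higher ones. No HSC library overlapped with another library for any of the 4, and the label of the 4 HSC libraries held by this measure. Among all 15596 genes with sufficient counts, 1377 (8.83%) likewise had every HSC library above all 12 others. In bulk libraries a change in the number of cells of a type and a change in RNA per cell cannot be told apart.

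**Figure D1:**
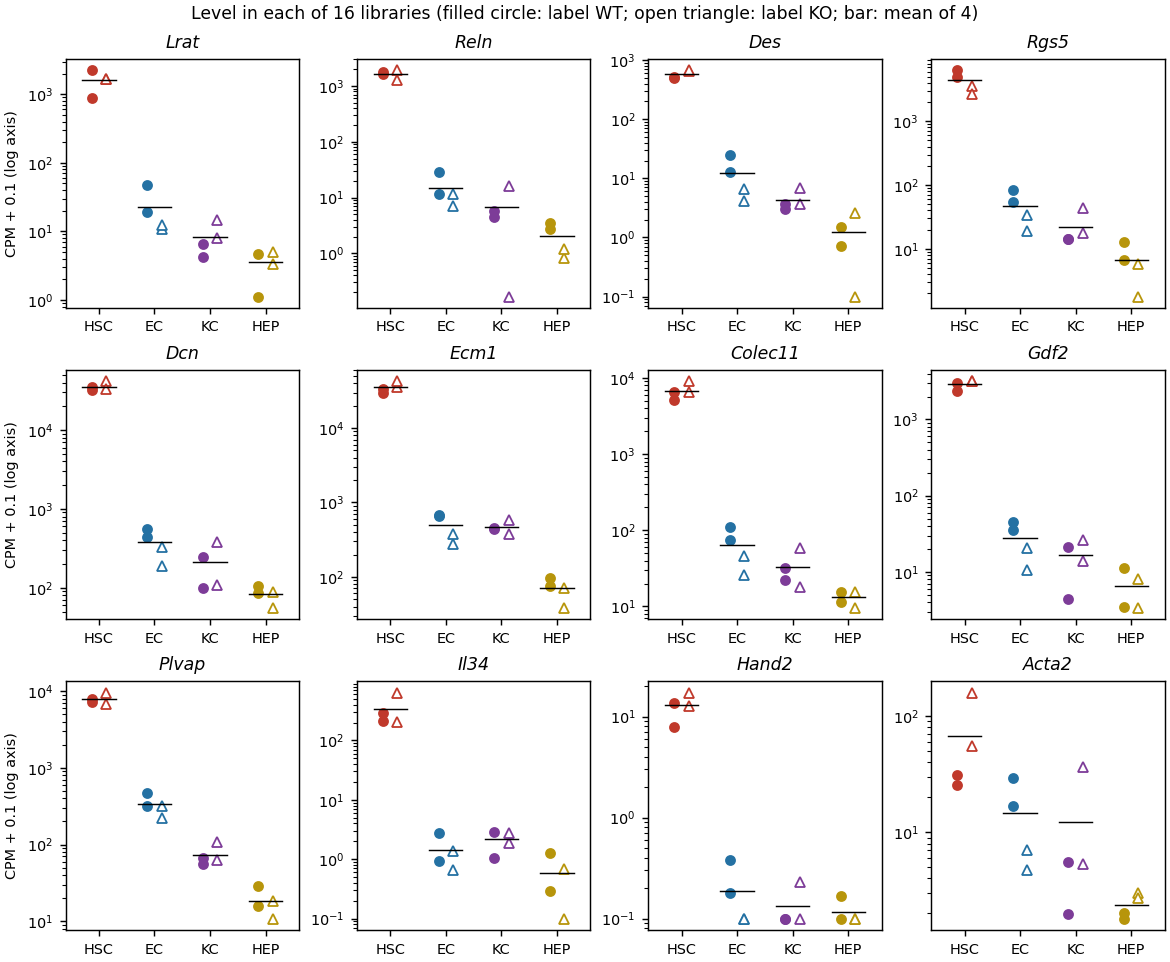
Level of 12 genes in each of the 16 libraries, as CPM + 0.1 on a log axis, by cell type; filled circles are WT libraries, open triangles KO-labelled libraries and bars the mean of 4 libraries. HSC libraries lie above all others for each gene shown except Acta2, whose HSC libraries (25.5 to 159.5 CPM) overlap with those of ECs (4.66 to 29.4 CPM) and KCs (1.89 to 36.0 CPM).

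Promoter sequence was described because the genes share a cell type of high expression. The stretch from 250 bases before to 50 bases after the annotated start (RefSeq, GRCm38.p6) was found for 383 of the 560 gene symbols, in 515 promoters. It is shown for Lrat (chr3:82903925-82904224, minus strand), Des (chr1:75360042-75360341, plus strand), Rgs5 (chr1:169655251-169655550, plus strand) and Colec11 (chr12:28623281-28623580, minus strand), that is, for 3 of the markers and for an abundant specific gene. Sequences run 5′ to 3′ on the strand of the gene. Capitals mark matches on either strand to 5 motifs that were searched. An E-box hexamer was searched as CAGCTG. The core of many homeobox factor sites was searched as TAATTA. A site of the GATA factors was searched as AGATAA. A forkhead-type site was searched as GTAAACA. The TATA box was searched as TATAAA.
Lrat: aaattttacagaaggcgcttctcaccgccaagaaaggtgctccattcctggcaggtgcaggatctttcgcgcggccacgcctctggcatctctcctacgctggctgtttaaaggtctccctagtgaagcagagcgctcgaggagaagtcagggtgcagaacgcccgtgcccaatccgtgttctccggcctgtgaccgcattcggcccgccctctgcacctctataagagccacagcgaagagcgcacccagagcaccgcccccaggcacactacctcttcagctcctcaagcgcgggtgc
Des: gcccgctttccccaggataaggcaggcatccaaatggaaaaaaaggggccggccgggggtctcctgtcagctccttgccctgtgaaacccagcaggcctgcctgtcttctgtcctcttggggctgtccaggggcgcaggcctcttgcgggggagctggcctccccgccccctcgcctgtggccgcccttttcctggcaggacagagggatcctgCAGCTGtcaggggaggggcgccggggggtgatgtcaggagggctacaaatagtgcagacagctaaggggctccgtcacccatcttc
Rgs5: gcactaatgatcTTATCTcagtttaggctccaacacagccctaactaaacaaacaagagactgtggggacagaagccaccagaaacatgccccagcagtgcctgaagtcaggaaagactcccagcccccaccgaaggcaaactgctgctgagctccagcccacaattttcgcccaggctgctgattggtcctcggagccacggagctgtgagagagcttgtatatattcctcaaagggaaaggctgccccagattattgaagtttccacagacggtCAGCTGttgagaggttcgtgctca
Colec11: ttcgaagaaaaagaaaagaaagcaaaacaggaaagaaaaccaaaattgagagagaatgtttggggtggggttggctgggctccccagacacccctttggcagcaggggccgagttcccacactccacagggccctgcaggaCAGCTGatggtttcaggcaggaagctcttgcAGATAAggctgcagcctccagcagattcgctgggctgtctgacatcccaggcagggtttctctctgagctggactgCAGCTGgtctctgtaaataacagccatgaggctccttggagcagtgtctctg
CAGCTG, of the kind read by basic helix-loop-helix factors, lies at -36 in Des, at 26 in Rgs5 and at -109 and -2 in Colec11 relative to the start, and the window of Lrat holds none of the 5 motifs. AGATAA, of the kind read by GATA factors, lies at -238 in Rgs5 on the opposite strand and at -78 in Colec11. CAGCTG was present in 118 of the 515 promoters of specific genes (22.9%), in 15.6% of 13958 promoters of tested genes and in 16.3% of all 32851 promoters. The shares of the other motifs were closer to those of tested genes. TAATTA was present in 2.33% of promoters of specific genes against 2.92% of those of tested genes, AGATAA in 7.57% against 6.98%, GTAAACA in 2.33% against 2.76% and TATAAA in 6.99% against 8.12%. Genes with several annotated starts contribute several promoters that may overlap, and a match describes sequence and not a bound site.

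HSC libraries were then set against all other cells. Of 15596 genes with sufficient counts, 4319 (27.7%) were higher and 2734 (17.5%) lower in HSCs than in the mean of ECs, KCs and HEPs at an adjusted p under 0.05, with the genotype label as covariate. By cell type, 2110 genes (13.5%) were higher and 1765 (11.3%) lower than in ECs, 3459 (22.2%) were higher and 3136 (20.1%) lower than in KCs, and 6326 (40.6%) were higher and 3546 (22.7%) lower than in HEPs. A gene was called higher, or lower, than each other cell type where it passed all 3 of these tests. This held for 1108 genes (7.1%) in the direction of higher and 287 genes (1.84%) in the direction of lower levels. These shares are the background for the gene lists below. The lists were chosen with earlier results of these data known, so that the shares of members called are descriptions. The median log2 difference over all tested genes was 0.02 against ECs, 0.07 against KCs and 0.74 against HEPs. With another scaling (RLE) these medians were -0.01, -0.02 and 0.53, and differences from HEPs are read relative to a shift of that size.

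Of the 3524 specific genes, 891 (5.71% of the tested genes) passed the filter on low counts. In 550 of the 560 with at least 10 CPM every HSC library was above all 12 others, where 8.83% of all tested genes (1377) did so. Both counts follow from how the genes were chosen. Most specific genes lay well above the limit. The ratio to the highest other mean was 4 to 8 for 131 genes, 8 to 16 for 128, 16 to 32 for 103, 32 to 64 for 85 and above 64 for 113, with a median of 19.8. The next highest cell type was EC for 386 genes (68.9%), KC for 114 (20.4%) and HEP for 60 (10.7%), and 539 were protein coding. Just inside the limit lay Pmm1 (ratio 4.09), Gramd4 (4.13) and Cand2 (4.14), and just outside it Tcf7 (3.996) and Syne2 (3.95). Specific genes took 24.5% to 26.5% of the reads in HSC libraries, 0.684% to 0.975% in ECs, 0.364% to 0.620% in KCs and 0.248% to 0.345% in HEPs. Over the 216 with at least 100 CPM, the median level in a library was 1.52% to 3.75% of the HSC mean in ECs, 0.825% to 2.06% in KCs and 0.216% to 0.391% in HEPs.

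The 2 most abundant specific genes encode secreted matrix proteins. Decorin (Dcn), a small leucine-rich proteoglycan that binds collagen fibrils, was at 35012 and 32457 CPM in WT and 41253 and 33469.6 CPM in KO-labelled libraries. Ecm1, encoding extracellular matrix protein 1, was at 29692 and 33982 CPM in WT and 35232 and 42333 CPM in KO-labelled libraries. These genes alone took 6.47% to 7.65% of the reads in HSC libraries. Per kilobase of exon the level of Ecm1 was the higher one, with a mean of 14006 CPM per kb against 6089 CPM per kb for Dcn. Next by CPM were Sod3 (extracellular superoxide dismutase, 9109 ± 4449 CPM, mean ± SD, n = 4), Cxcl12 (the ligand of Cxcr4, 8666 ± 1082 CPM), Plvap (7897 ± 1243 CPM), Colec11 (a collectin of the lectin complement pathway, 6786 ± 1615 CPM), and the proteoglycans Bgn (6505 ± 376 CPM) and Prelp (6433 ± 901 CPM). Tgfbi, encoding a matrix protein induced by TGF-β, and the metalloreductase Steap4 completed the 10, at 5831 ± 878 CPM and 4811 ± 1149 CPM. Sod3 was uneven, with 15768 CPM in a KO-labelled library and 6630 to 7291 CPM in the other 3.

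Plvap encodes the diaphragm protein of endothelial fenestrae and caveolae, and is the antigen of the Meca32 (Pan-endo) antibody used to sort ECs. It was at 7169.8 and 7976 CPM in WT and 6825 and 9616 CPM in KO-labelled libraries in HSCs and at 222 to 471 CPM in ECs, so that the lowest HSC library lay above every EC library. Endothelial markers ran the other way in the same libraries. Kdr, a VEGF receptor, was at 9.06 to 122 CPM in HSCs and 1633 to 2487 CPM in ECs, and Flt4, another VEGF receptor, at 8.02 to 26.4 CPM against 655 to 953 CPM. Plvap was also detected in KCs (56.0 to 108 CPM) and HEPs (10.7 to 29.1 CPM).

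The 20 genes ranked first by the fitted difference to their closest other cell type were less abundant and in part nearly without counts elsewhere. Grhl3, a grainyhead-like transcription factor, was at 6.28 and 17.9 CPM in WT and 24.8 and 32.6 CPM in KO-labelled libraries and had no count in KC or HEP libraries. Col24a1, a fibrillar collagen chain, was at 13.4 to 24.9 CPM in HSCs and at most 0.0777 CPM elsewhere. Among the 20 were Nrxn3 (36.2 to 74.1 CPM), Cdh18 (14.1 to 41.8 CPM), Ptprt (3.53 to 22.6 CPM), Syt9 (23.0 ± 8.89 CPM), Neto1 (7.12 to 33.1 CPM) and Epha7 (144 to 280.1 CPM). Signalling genes were Tnfrsf11b (osteoprotegerin, the decoy receptor of RANKL, 754 to 1033 CPM), Frzb (a secreted Wnt antagonist, 137 to 265 CPM), Il34 (a ligand of Csf1r, 201 to 640.4 CPM) and Pth1r (the parathyroid hormone receptor, 1174 to 1921 CPM). The others were the retinaldehyde dehydrogenase Aldh1a3 (23.2 to 70.4 CPM), Tril (15.9 to 38.8 CPM), Ggt7 (40.2 to 54.3 CPM), Samd5 (42.0 to 82.1 CPM), the laminin chain Lamb1 (406 to 656 CPM), Gpr153 (26.1 to 44.9 CPM), the transcription factor Hand2 (7.81 to 17.2 CPM) and AV026068 (157 to 249 CPM). They were ranked on these same libraries and carry no test here. Where they are counted as called in the lists below, the call is not independent of the ranking.

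Vitamin A genes were divided between HSCs and other cells. Of 23 tested members of a list of 26 retinoid handling genes, 5 were higher and 1 lower than in each other cell type. The median log2 difference from the mean of the others was 0.07 for this list and 0.17 over all tested genes. Among those higher were Lrat, Aldh1a3, Bco1 (which cleaves β-carotene, 306 ± 77.3 CPM against 15.1 CPM in HEPs) and the retinoic acid receptor Rara (79.3 ± 22.0 CPM against 28.5 CPM in ECs). Lipe, encoding hormone-sensitive lipase, was lower (12.2 ± 1.99 CPM against 13.6 CPM in HEPs, log2 difference -1.04 ± 0.30 SE, edgeR adjusted p = 0.00789). The HSC and HEP means of Lipe were close in CPM, which used library totals, whereas the fit scaled libraries by TMM. Over all counted genes the TMM factors were 1.07 to 1.20 in HSC and 0.568 to 0.658 in HEP libraries. This scaling lowers fitted differences from HEPs relative to those in CPM. Rbp4, the plasma carrier of retinol, and its partner Ttr had their highest means in HEPs (6273 and 9633 CPM, against 165 and 273 CPM in HSCs). Of the enzymes that degrade retinoic acid, Cyp26a1 was at 0.784 ± 1.03 CPM in HSCs and 125 CPM in HEPs, and Cyp26b1 at 0.350 ± 0.329 CPM in HSCs and 113 CPM in ECs.

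Matrix genes made a large group. Of 48 tested matrix proteins other than collagens, 33 were higher than in each other cell type and 0 lower, with a median log2 difference of 5.69 from the mean of the others. Of 26 tested collagen chains, 11 were higher and 0 lower (median 4.55). The chains of this list called higher belong to types I, III, V, VI, XIV, XVI and XXV, and Col24a1, named above, is not on the list. Col14a1, a fibril-associated chain, led them by CPM and per kilobase (342 CPM per kb), at 2243 and 2105 CPM in WT and 2409 and 2829.9 CPM in KO-labelled libraries and at most 66.9 CPM elsewhere. The fibrillar chains Col3a1 (1399.5 ± 765 CPM), Col1a2 (1055 ± 273 CPM) and Col1a1 (338 ± 172 CPM) varied more among HSC libraries. Col3a1 was at 2327 and 1588 CPM in WT and 1186 and 498 CPM in KO-labelled libraries, so that the WT libraries were the higher ones. Further matrix genes called higher were Colec10, the partner of Colec11 (1679 ± 255 CPM), lumican (Lum, 1772 ± 818 CPM) and the elastic fibre proteins Efemp1 (1390.3 ± 266 CPM) and Fbln5 (1095 ± 248 CPM). Sparc, a collagen-binding glycoprotein, was abundant in both HSCs and ECs (6217 and 5101 CPM) and did not pass.

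Basement membrane genes were divided between HSCs and ECs. Lama1, Lamb1 and Lamc1, the chains of the laminin 111 trimer, were higher in HSCs than in each other cell type, at 26.2, 55.8 and 19.7 CPM per kb in HSCs and 0.379, 0.282 and 2.04 CPM per kb in ECs. Against ECs the edgeR log2 differences (± SE) were 6.66 ± 0.87 for Lama1 (adjusted p = 5.24e-05) and 3.56 ± 0.61 for Lamc1 (adjusted p = 0.000526). That of Lamb1, ranked above on these same libraries, was 7.91 ± 1.14. Lama4, the α-chain of vascular laminins, was lower in HSCs than in ECs (0.465 against 25.7 CPM per kb, log2 difference -5.52 ± 0.54 SE, edgeR adjusted p = 4.13e-06). The proteoglycan Hspg2 (perlecan) was likewise lower (4.28 against 19.7 CPM per kb, log2 difference -1.91 ± 0.39 SE, edgeR adjusted p = 0.00229). Col4a1 (71.7 in HSCs against 38.3 CPM per kb in ECs), Col4a2 (66.2 against 48.6), Nid1 (71.6 against 45.1) and Lamb2 (15.1 against 14.8) did not pass between HSCs and ECs, with edgeR adjusted p = 0.0656, 0.139, 0.0808 and 0.729. For Col4a1 every HSC library lay above every EC library, with a log2 difference of 1.20 ± 0.45 (SE).

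**Figure D2:**
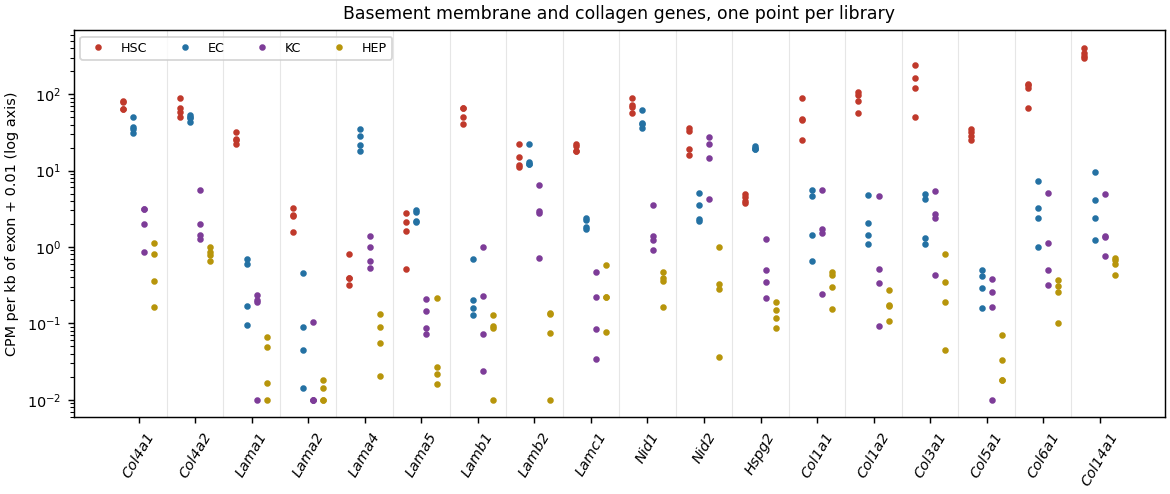
Basement membrane genes (Col4a1 to Hspg2) and other collagens (Col1a1 to Col14a1) as CPM per kilobase of exon + 0.01 on a log axis, with 1 point for each of the 16 libraries coloured by cell type. Lama1, Lamb1, Lamc1 and the other collagens are highest in HSCs, Lama4 and Hspg2 are highest in ECs, and Col4a2, Lama5, Lamb2 and Nid1 overlap between HSCs and ECs.

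Genes that process matrix had 14 of 26 tested members higher and 0 lower. Serpinh1, the collagen chaperone Hsp47, was at 961 ± 328 CPM against 199 CPM in ECs (log2 difference 2.49 ± 0.61 SE, edgeR adjusted p = 0.00738). Pcolce, which enhances procollagen cleavage, was at 882 ± 167 CPM, the gelatinase Mmp2 at 447 ± 122 CPM, the procollagen protease Adamts2 at 391 ± 51.0 CPM and Adamtsl2 at 373 ± 155 CPM. Timp1, a metalloproteinase inhibitor, was called higher at 12.6 ± 3.69 CPM, while the more abundant Timp2 and Timp3 (150.1 and 248 CPM) did not pass.

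Contractile and mural genes had 20 of 27 tested members higher and 0 lower (median log2 difference 5.53). Receptors for vasoactive peptides were among them. The angiotensin II receptor Agtr1a was at 1650.3 ± 502 CPM against 96.7 CPM in HEPs (log2 difference 3.22 ± 0.41 SE, edgeR adjusted p = 1.2e-05). The endothelin receptors Ednrb (1380.5 ± 351 CPM) and Ednra (762 ± 174 CPM) differed in their level in ECs, at 203 and 6.10 CPM. Abcc9 and Kcnj8, the subunits of the vascular ATP-sensitive potassium channel, were at 1050.1 ± 161 CPM and 991 ± 163 CPM. Rgs4 (903 ± 332 CPM), Mylk (myosin light chain kinase, 828 ± 57.0 CPM), Pdgfrb (the PDGF receptor of mural cells, 706 ± 171 CPM) and the subunits of the nitric oxide receptor Gucy1a3 (780.2 ± 39.2 CPM) and Gucy1b3 (344 ± 85.3 CPM) were called higher as well. Acta2, encoding α-smooth muscle actin, was at 25.5 and 31.1 CPM in WT and 54.7 and 159.5 CPM in KO-labelled libraries and was not called higher (log2 difference 2.09 ± 0.84 SE, edgeR adjusted p = 0.0864). Cspg4 (NG2), a pericyte proteoglycan, was at 1.69 ± 0.455 CPM and did not pass.

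Markers of other mesenchymal cells were partly shared. Of 5 tested smooth muscle markers 3 were higher (Smtn, Myh11 and Synpo2), a call that Synpo2 lost without either KO-labelled EC library (log2 difference 3.34 and 3.88). Cnn1 and Actg2 of the same list were at 1.06 ± 0.867 CPM and 0.402 ± 0.483 CPM. The summed level of the 7 smooth muscle markers was 391.7 to 682 CPM in HSCs, most of it Smtn (539 ± 123 CPM), and 121 to 199 CPM in ECs. Of 8 portal fibroblast markers 3 were higher (Dpt, Mfap4 and Eln, at 95.7 ± 55.9 CPM, 81.8 ± 49.1 CPM and 59.2 ± 25.0 CPM), and Thy1, which defines portal fibroblasts, was at 0.249 ± 0.0599 CPM. Their summed level was 175 to 428 CPM in HSCs and 97.5 to 255 CPM in ECs. Of 6 tested mesothelial, 9 lymphocyte, 6 neutrophil and 3 erythroid markers 0 were called, and the 1 tested Schwann cell marker was not called either. Of 5 cholangiocyte markers 1 was lower (Krt19, 1.55 ± 0.811 CPM), which was lost without any 1 of 4 libraries (adjusted p up to 0.0838). The part of such cells in the matrix and contractile genes was not tested.

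A list of neural-type markers had 7 of 15 members higher and 0 lower (median log2 difference 5.42). Ngfr, the low-affinity neurotrophin receptor p75, was at 1890.0 and 2362 CPM in WT and 1311 and 1681 CPM in KO-labelled libraries and at most 35.1 CPM elsewhere (log2 difference 6.93 ± 0.85 SE, edgeR adjusted p = 3.1e-05 against ECs). Nrxn3, Ncam1 (28.3 ± 8.72 CPM), Reln and Gfap were also called higher. Gfap, a glial filament used as a marker of HSCs, was at 35.3 ± 8.27 CPM, with 1.08 CPM in ECs and no count in KC and HEP libraries. Sox10, which defines Schwann cells, had no count in HSC libraries.

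Secreted signals were higher for 22 of 56 tested members and lower for 0, with a median log2 difference of 2.89. Ligands of the BMP family were among them. Gdf2 (BMP9) was at 2986 and 2368 CPM in WT and 3152 and 3156 CPM in KO-labelled libraries and at a mean of 27.9 CPM in ECs (log2 difference 7.06 ± 0.70 SE, edgeR adjusted p = 5.45e-06). Bmp10, which shares its receptor with Gdf2, was at 55.4 ± 11.9 CPM and at most 2.097 CPM elsewhere, Bmp5 at 339.6 ± 109 CPM, Gdf10 at 160.3 ± 76.7 CPM and Bmp4 at 143 ± 38.7 CPM. Bmp2 and Bmp6, in contrast, were lower in HSCs than in ECs (139.9 against 1233 CPM, edgeR adjusted p = 0.000158, and 1.15 against 43.0 CPM, adjusted p = 0.00038). Hgf, the mitogen of hepatocytes, was at 688 ± 104 CPM against 75.4 CPM in ECs, and Rspo3, an enhancer of Wnt signalling, at 351 ± 81.4 CPM against 26.3 CPM. The macrophage growth factor Il34 was at 292 and 213 CPM in WT and 201 and 640.4 CPM in KO-labelled libraries and at most 2.81 CPM elsewhere. Csf1, the other ligand of its receptor, was shared with ECs (356 ± 124 CPM against 157 CPM, log2 difference 1.47 ± 0.39 SE, edgeR adjusted p = 0.0125). The chemokine Ccl2 was at 1469.9 and 314 CPM in WT and 147 and 189 CPM in KO-labelled libraries and overlapped with KCs (172 to 573 CPM).

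Of 52 tested receptors, 14 were higher and 1 lower. S1pr3, a receptor of sphingosine 1-phosphate, was at 1094 ± 247 CPM and Fgfr2 at 531 ± 257 CPM, and both were called higher. S1pr1, which binds the same lipid, was the member called lower, at 7.82 ± 4.36 CPM against 341 CPM in ECs, 30.0 CPM in KCs and 64.02 CPM in HEPs (log2 difference -2.01 ± 0.39 SE, edgeR adjusted p = 0.000905 against KCs). Bambi, a decoy receptor of the TGF-β family, was called higher (391 ± 86.3 CPM against 90.5 CPM in ECs), whereas Eng, a co-receptor of Gdf2, was higher in ECs (6792 against 2675 CPM, edgeR adjusted p = 0.0163). Pdgfra was at 207 ± 30.5 CPM, below Pdgfrb also per kilobase (20.6 against 129 CPM per kb).

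In 29 ligand and receptor pairs, 12 of 23 ligands and 6 of 25 receptors were higher in HSCs than in each other cell type. For 10 of these 12 ligands, all of their receptors in the list had the highest mean in another cell type, and Jag1 with Notch3 was an exception. This count ranks means and was not tested. In the receptor list above, 19 of 53 members had their highest mean in HSCs. Some ranks were close or near the floor. Ackr3, a receptor of Cxcl12, was at 16.3 CPM in ECs and 15.9 CPM in HSCs. Lrp8, a receptor of Reln, had its highest mean in KCs, at 0.215 CPM. Csf1r, the receptor of Il34 and Csf1, was at 5275 CPM in KCs and 175 CPM in HSCs. Acvrl1 (ALK1), the receptor of Gdf2 and Bmp10, was at 222 CPM in KCs, 103 CPM in ECs and 11.1 CPM in HSCs. Met, the receptor of Hgf, was at 8.05 to 19.1 CPM in HEPs and 0 to 2.56 CPM in HSCs. Lgr5, a receptor of Rspo3, had a mean of 7.17 CPM in HEPs and at most 0.250 CPM in the other cell types. Pdgfrb and the endothelin receptors were the reverse case. Pdgfrb, Ednra and Ednrb were higher in HSCs, while their ligands Pdgfb and Edn1 were low there. Pdgfra was higher in HSCs as well, but its ligands in the list were divided. Pdgfa had its highest mean in HSCs (18.3 CPM against 10.5 CPM in KCs) and did not pass against KCs (edgeR adjusted p = 0.214). Pdgfc was at 29.2 CPM in KCs and 1.66 CPM in HSCs. Pdgfb was at 11.8 to 20.4 CPM in KCs and 1.43 ± 2.14 CPM in HSCs, and in ECs at 1.67 and 3.50 CPM in WT and 16.4 and 20.0 CPM in KO-labelled libraries, so that the KO-labelled EC libraries lay within the range of KCs and the WT ones below it. Edn1 was at 17.9 CPM in ECs and 1.98 ± 1.99 CPM in HSCs. Little Cxcr4, the receptor of the abundant Cxcl12, was counted in these cells, with the highest mean in KCs (9.36 CPM). Transcript levels do not measure secretion or binding.

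**Figure D3:**
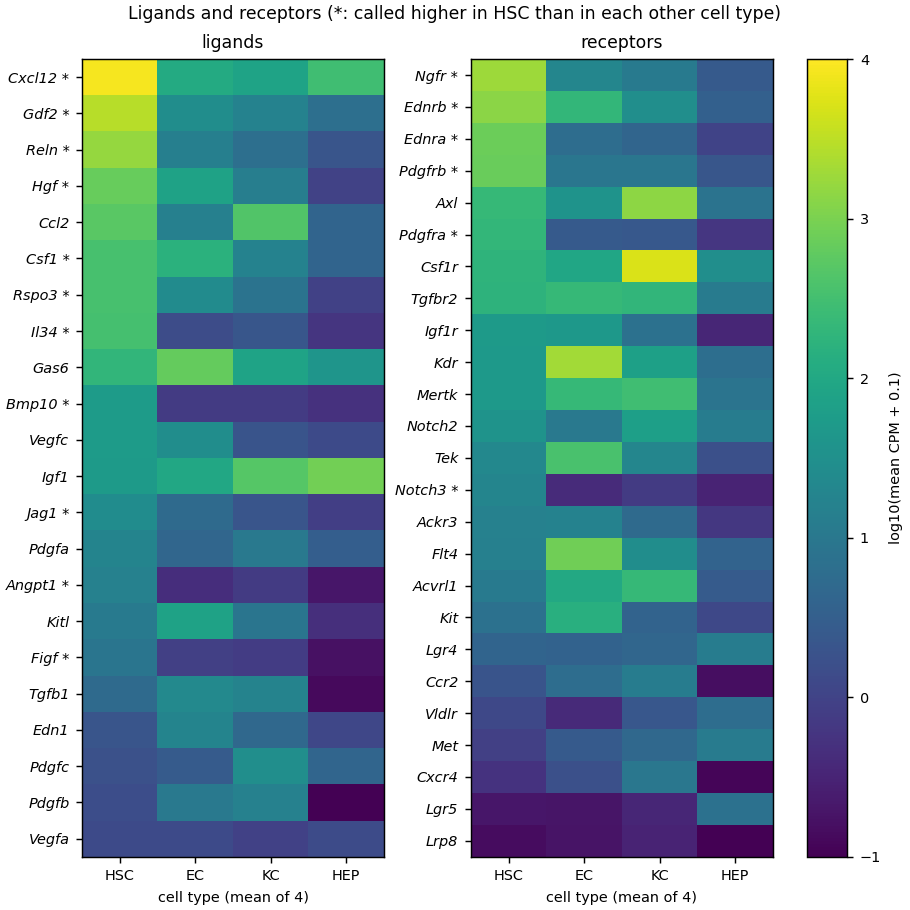
Mean level of 22 of the 23 ligands (left) and 25 receptors (right) in HSCs, ECs, KCs and HEPs, as log10 of mean CPM + 0.1 over 4 libraries, ordered by the level in HSCs; an asterisk marks genes called higher in HSCs than in each other cell type. Cxcl12, Gdf2, Reln and Hgf lead the ligands and Ngfr, Ednrb, Ednra and Pdgfrb the receptors in HSCs, whereas Csf1r is highest in KCs and Kdr and Flt4 are highest in ECs.

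Among mesenchymal transcription factors, 9 of 31 tested members were higher and 1 lower. Called higher were Heyl, a target of Notch signalling (329.8 ± 68.1 CPM), Tcf21 (186 ± 114 CPM), Foxf1 (87.1 ± 12.4 CPM), Lhx2 (70.0 ± 23.8 CPM), Tbx20 (61.5 ± 9.62 CPM), Snai2 (55.4 ± 10.5 CPM), Gata6 (17.2 ± 9.28 CPM), Hand2 (12.8 ± 3.87 CPM) and Twist2 (3.68 ± 0.388 CPM). Lhx2, which restrains HSC activation, was at 40.0 and 64.6 CPM in WT and 96.3 and 79.0 CPM in KO-labelled libraries and at most 1.41 CPM elsewhere (log2 difference 6.84 ± 0.95 SE, edgeR adjusted p = 9.62e-05 against ECs). Tcf21 ranged widely, at 218 and 313 CPM in WT and 175 and 38.9 CPM in KO-labelled libraries. Twist2 had no count in the 12 other libraries. Gata4 was at 154 ± 41.2 CPM in HSCs and 438 CPM in ECs and did not pass between them (edgeR adjusted p = 0.0546). Pparg was called lower (0.902 ± 1.12 CPM against 3.83 CPM in HEPs, edgeR adjusted p = 0.0437), but not without any 1 of 11 of the libraries (adjusted p up to 0.207).

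Genes known to rise in activated HSCs were at uneven levels. Of 18 tested members 9 were higher and 1 lower. Among those called higher were Col1a1, Col1a2, Col3a1, Postn (periostin, 991 ± 155 CPM), Tagln (106 ± 36.4 CPM), Tnc (51.4 ± 29.5 CPM), Loxl2 (35.4 ± 2.18 CPM) and Timp1. Others were at or near the level of 3 counts, with Fap at 0.454 ± 0.189 CPM and Cthrc1 at 0.430 ± 0.394 CPM. Spp1 (osteopontin) was called lower although its HSC mean in CPM was not below that of HEPs (57.6 ± 26.5 CPM against 49.2 CPM, log2 difference -0.73 ± 0.30 SE, edgeR adjusted p = 0.0465). Its fitted difference, like that of Lipe, includes the TMM scaling against HEPs. The call for Spp1 was lost without any 1 of 11 of the libraries (edgeR adjusted p up to 0.159).

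Immediate early genes, which respond quickly to tissue dissociation, were abundant in HSC libraries. Of 10 members of this list 3 were higher (Junb, Ier2 and Fosb) and 0 lower, and Junb was lost without any 1 of 6 libraries (adjusted p up to 0.0856). Fos was at 13256 ± 1505 CPM in HSCs and at 10262 CPM in ECs, 3317 CPM in KCs and 1086 CPM in HEPs. The summed level of the list was 38232 to 45848 CPM in HSCs, 20554 to 34615 CPM in ECs, 5690 to 31196 CPM in KCs and 2900 to 5206 CPM in HEPs. Its part in the other differences was not tested.

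**Figure D4:**
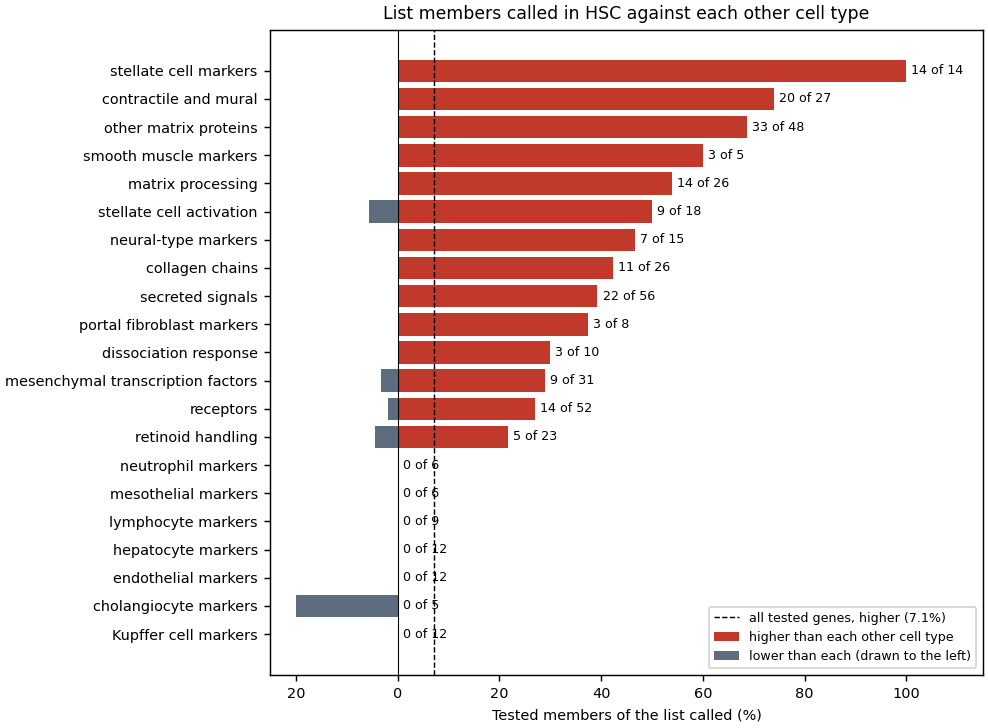
Share of the tested members of each gene list, among lists with at least 5 tested members, that was called higher (red) or lower (grey, drawn to the left) in HSCs than in each of ECs, KCs and HEPs; the dashed line is the share of all tested genes called higher, 7.1%. Stellate cell markers have 14 of 14 members higher and contractile and mural genes 20 of 27. The marker lists of ECs, KCs and HEPs have 0 of 12 each. Lists were chosen with earlier results of these data known. Dcn, Ecm1 and Colec11 of the stellate cell list are among the most abundant specific genes.

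Genes lower in HSCs than in each other cell type were fewer, with 287 in all and 187 without the KO-labelled HSC library 8. Of the 287, 112 had their highest mean in ECs, 73 in KCs and 102 in HEPs. The 10 with the largest fitted difference to the closest cell were Rnf144b, N4bp2l1, Hsd3b5, Iqgap2, Mmd, Mup14, Ceacam1, Nceh1, Chn2 and Dnajc22. Rnf144b, an E3 ubiquitin ligase, was at 0.0691 to 1.38 CPM in HSCs and 4.25 to 53.8 CPM in the others. Iqgap2, a scaffold protein of the cytoskeleton, was at 1.45 to 7.23 CPM against 27.4 to 54.0 CPM, and the adhesion molecule Ceacam1 at 5.74 to 21.4 CPM against 64.6 to 263 CPM. Nceh1, a cholesteryl ester hydrolase, was at 5.89 to 8.58 CPM in HSCs, 45.9 to 75.0 CPM in ECs, 179 to 246 CPM in KCs and 12.8 to 38.9 CPM in HEPs. In these 4 genes no HSC library overlapped with another library. N4bp2l1 (3.25 to 5.76 CPM against 32.1 to 95.3 CPM), Mmd (3.32 to 14.0 CPM against 36.8 to 137 CPM) and Chn2 (0.768 to 2.88 CPM against 3.68 to 43.9 CPM) did not overlap either. The 10 genes were ranked on these same libraries, so that a lack of overlap follows in part from the ranking and carries no test. The share of all tested genes with every HSC library below all others was not counted. Hsd3b5, Mup14 and Dnajc22 were highest in HEPs, where their means were 229, 323 and 151 CPM. Hepatocyte markers summed to 659 to 8271 CPM in HSC, 2076 to 25773 CPM in EC and 6129 to 12150 CPM in KC libraries. The part of hepatocyte RNA in the calls of Hsd3b5, Mup14 and Dnajc22 was not tested. The call for Mup14 was lost without any 1 of 9 libraries (adjusted p up to 0.119), and 9 of the 287 genes were Mup genes, near-identical copies among which reads cannot be assigned with certainty. Without the HEP libraries 867 genes were lower in HSCs than in both ECs and KCs.

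Finally, HSC identity was compared between the genotype labels. As specific genes had been chosen on all libraries, the choice was repeated in 1 label and tested in the other. Of 565 genes with at least 10 CPM that met the 4-fold rule in WT libraries, 395 (69.9%) were higher than in each other cell type in the 8 KO-labelled libraries alone, where 3.5% of 16037 genes were so called. The share over all genes has no limit of 10 CPM. Without that limit 435 of 984 chosen genes with sufficient counts (44.2%) passed. Of the 565, 510 met the 4-fold rule again and 564 had a higher level in HSCs than in the other cells. In the reverse direction 390 of 594 genes (65.7%) passed in WT libraries, against 3.14% of 15979 genes, 528 met the rule again and 591 had a higher level in HSCs. Without the limit of 10 CPM, 414 of 1024 genes chosen in KO-labelled libraries (40.4%) passed in WT libraries. The libraries of choice and of test were separate. Among 556 of the 565 genes with a ratio under both labels, the median log2 ratio was 4.07 in WT and 4.29 in KO-labelled libraries, and 233 had the smaller ratio in the latter. For Lrat the log2 ratio was 5.54 in WT and 7.21 in KO-labelled libraries, and its level in ECs was 19.3 and 47.7 CPM in WT against 10.6 and 12.3 CPM in KO-labelled libraries.

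**Figure D5:**
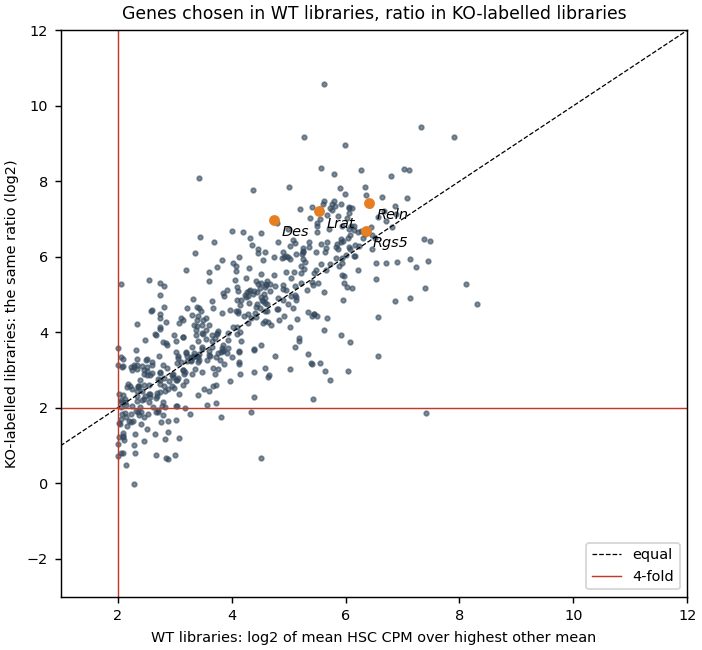
Log2 ratio of the mean HSC level to the highest other cell type mean, in WT libraries (horizontal axis) and KO-labelled libraries (vertical axis), for 556 genes that met the 4-fold rule with at least 10 CPM in WT libraries. Red lines mark a 4-fold ratio, below which 55 genes lie in KO-labelled libraries, the dashed line marks equal ratios, and Lrat, Reln, Des and Rgs5 are drawn in orange.

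The difference between HSCs and the mean of the other cells depended on the genotype label for 12 genes (0.0769%, with 1057, or 6.78%, at an unadjusted p under 0.05) in a test of the interaction over 16 libraries. That count rested on single libraries, as it was 0 without the KO-labelled KC library 43, the WT HSC library 40, the WT HEP library 29 or 33 or the KO-labelled HEP library 25, 4 to 7 without any EC library, the KO-labelled HSC library 8 or the KO-labelled HEP library 41, and 31 without the WT HSC library 32. Of the 891 specific genes tested 0 were among them with edgeR, with 24 at an unadjusted p under 0.05. DESeq2 called 251 genes in the same interaction, with 1 specific gene (Fam171b). Within HSCs, 0 of 14390 genes (0%) passed between the labels with edgeR, with 1259 (8.75%) at an unadjusted p under 0.05. Of 1140 specific genes with counts for this test, 84 (7.37%) had an unadjusted p under 0.05, 44 of them higher and 40 lower under the KO label, and the smallest edgeR adjusted p was 0.283. DESeq2 called 12 specific genes within HSCs. Higher under the KO label with DESeq2 were Fam171b (mean 79.2 against 7.17 CPM, adjusted p = 3.88e-12), the heparan sulfate proteoglycan Gpc3 (159 against 62.7 CPM), the contractile genes Myl9 (512 against 229 CPM), Myh11 (70.0 against 25.9 CPM) and Acta2 (107 against 28.3 CPM), the prostaglandin receptor Ptger3 (55.4 against 11.9 CPM) and Olfr1030 (8.57 against 0.256 CPM). Lower were Pcdh18 (37.8 against 104 CPM), the hedgehog inhibitor Hhip (112 against 247 CPM), Rgs5 (3127 against 5598 CPM, DESeq2 adjusted p = 0.0489), Gria1 (0.138 against 4.55 CPM) and Il11 (0.173 against 4.35 CPM). With edgeR the adjusted p of these 12 genes lay between 0.283 and 0.436, and the call thus rests on the tool. Hepatocyte marker RNA also differed between the labels within HSCs, as given above, and its part was not tested.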

How the data were processed

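Poly(A) RNA of HSCs, ECs, KCs and HEPs sorted from unchallenged livers was sequenced in 16 libraries. Per the submitters' processing notes, the authors trimmed reads with Trimmomatic (0.32), aligned them to GRCm38 with HISAT2 (2.1.0) and deposited raw read counts per Ensembl gene from HTSeq (0.9.1). The strand setting of the counting is not given in the sources used here, and the sources name both a TruSeq stranded and a Smart-seq2 preparation, so that overlapping and antisense genes are uncertain. Lines that name no gene were left out of library totals (no feature 1.31% to 14.0%, ambiguous 2.88% to 4.91%, not aligned 3.98% to 6.23% and not unique 24.8% to 47.9% of reads, the last highest in HEPs). Gene symbols and exon lengths came from GENCODE M21, which held 98.9% of the 47729 identifiers, and promoters from RefSeq.

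Genes were filtered with filterByExpr, scaled by TMM and tested with the quasi-likelihood test of edgeR (4.0.16, R 4.3.3) on cell type with the genotype label as covariate, with Benjamini-Hochberg adjustment over all genes tested and a threshold of 0.05. SE was taken as the log2 difference over the square root of F. CPM used library totals. Level, ratio and motif tables used Python 3.11.15 with pandas 2.3.3, and DESeq2 (1.42.0), other scalings, filters, thresholds and the omission of each library were alternatives. Fits were run on simulated counts with 200 changed genes, drawn from a mean profile shared by all libraries with a fixed dispersion. That setting lacks the differences in composition and spread of these data, and no result here rests on it. Replicates differed by more than sampling noise (chi-square per gene 29.6 to 109), and none was counted as a repeat. CPM limits cover counting error only.

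Genes named were the 4 markers, the 20 specific genes with the largest smallest difference to the other cells among those with at least 10 CPM and no overlap, the 10 most abundant specific genes, the 10 genes called lower with the largest difference to the closest cell type and at least 10 CPM in each of the others, up to 6 called members of each list by level, and the pairs. Further list members, Zeb2 and the genes called by DESeq2 were named after their values were seen. Some genes that the rule names, and 1 gene next to the 4-fold limit, are not reported here, but counts include them. The members and lists were chosen with earlier results of these data known.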

Additional observations from a re-analysis of the deposited data

Results flagged for a closer look

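Of 135 named genes, 9 had a single HSC library that lay apart from the other 3 by more than the limit of Dixon's test, which chance exceeds in about 1 in 20 groups of 4. In 5 of them the WT HSC library 32 was the highest. Tnfrsf11b was at 1033 CPM there and at 754 to 782 CPM in the other 3 HSC libraries. Csf1 was at 541 CPM against 282 to 314 CPM, Mfap4 at 155 CPM against 49.9 to 63.9 CPM and Ccl2 at 1470 CPM against 147 to 314 CPM. Lrp8 was at 0.192 CPM, the value of 3 counts in that library, against 0 in the other 3. In the KO-labelled HSC library 20, Sod3 was at 15768 CPM against 6630 to 7291 CPM, and Bmp5 was lowest at 178 CPM against 380 to 417 CPM. Snai2 was at 71.2 CPM in the KO-labelled HSC library 8 against 49.5 to 50.7 CPM, and Chn2 at 2.88 CPM in the WT HSC library 40 against 0.768 to 1.11 CPM.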

How the results depend on the processing

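The number of genes lower in HSCs than in each other cell type, 287, became 505 with DESeq2, 721 with no filter on low counts, 121 at an adjusted p under 0.01, 83 with a minimum absolute log2 fold change of 2, 79 in WT libraries alone, and 867 without the HEP libraries, an alternative added after seeing the data. The 1108 higher genes became 713 at an adjusted p under 0.01, 732 with the minimum log2 fold change of 2, 502 in WT and 562 in KO-labelled libraries alone. Against the mean of the other cells the counts were 1108 and 287 when each cell type was tested, 1808 lower genes passed at 0.01, and 2140 higher and 1120 lower genes had a log2 fold change of at least 2. The 3524 specific genes became 560 with at least 10 CPM and 570 when the lowest HSC library was set against the highest other library, and the 560 became 882 with a 2-fold and 301 with a 16-fold limit. The interaction gave 251 genes with DESeq2 in place of 12, and DESeq2 called 12 specific genes between labels within HSCs. Of the list members lower in HSCs (5), DESeq2 gave 9 and no filter gave 25.

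When each library was left out in turn, lower genes ranged from 187 (without the KO-labelled HSC library 8) to 380 (without the WT HSC library 40), list members lower from 3 to 8 (8 without the KO-labelled KC library 43 or the WT HSC library 40) and the interaction from 0 to 31, and the cause was not tested. Of 2680 values of 134 named genes under alternatives, 2565 kept their direction and their side of the threshold, 85 were no longer past it, 8 passed newly and 22 changed sign, with 106 genes keeping every call. Changes of sign concerned differences that did not pass. Edn1 against HEPs was -0.071 with DESeq2 and -0.076 with RLE scaling on the log2 scale, and -0.46 to 0.54 without single libraries. Without single libraries, Lgr5 against ECs ranged from -1.53 to 0.95, Ackr3 against ECs from -0.11 to 0.54, Pdgfc against ECs from -1.58 to 0.34, Igf1 against ECs from -0.70 to 0.16, Vegfa against KCs from -0.049 to 1.12 and Ccl2 against KCs from -1.11 to 0.40.

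No library number occurs in more than 1 group, so that the labels pair no libraries. Runs of 4 consecutive numbers (8 runs, 2 of them with 1 library) held libraries of 1 genotype label each and may be livers, which the labels do not state. Deviations from the group means correlated across genes at -0.021 to 0.16 in the 10 pairs of libraries within a run. They were over 0.1 in 5 of these pairs. As each group has 2 libraries, their deviations mirror each other, and pairs of the same 2 groups repeat 1 value. The values 0.131 and 0.137 each occur in 2 pairs for this reason, so that the 5 pairs are not independent. With the runs as a replicate block in place of the genotype label, an alternative added after seeing the data, 2645 genes were higher than the mean of the others, 618 higher and 176 lower than each, and 3 list members lower. Csf1, Gfap, Junb, Ier2, Fosb, Synpo2, Krt19, Pparg and Spp1 did not pass there, and log2 differences of -3.42 for Lgr5 against ECs and 0.77 for Ccl2 against KCs were of the opposite sign.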
